A study of Mus musculus with 10 samples.

Results

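Collagens are the proteins of which most of the extracellular matrix is built, and each is wound from chains that are encoded by separate genes. Fibrillar chains form the ropes of connective tissue, type IV chains form the sheet of basement membranes, type VI chains form beaded filaments around cells, and the FACIT chains (fibril-associated collagens with interrupted helices) sit on the surface of fibrils. Transmembrane chains anchor cells to the matrix, and multiplexins lie in the basement membrane zone. In a carcinoma, fibroblasts are known as the main source of fibrillar chains, while epithelial cells make type XVII collagen and share in making the basement membrane.

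The genes described are those of the deposited table whose symbol is Col, a number, a and a number, and whose mean over the 10 libraries was at least 10 normalized counts. Of 43 such symbols among 23086 genes, 41 passed. Col22a1 (mean 7.46) and Col9a2 (mean 5.05) fell just below, and Col6a6 (10.6), Col26a1 (10.6) and Col9a1 (10.9) just above. Since the mean is taken over both groups, 9 chains passed with an ATM-KO mean under 10 and 1 (Col26a1) with an ATM-WT mean under 10, so their part in any count is set partly by that rule.

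The RNA came from mouse tumours of BBN963, a urothelial carcinoma cell line named for the bladder carcinogen BBN, and the design compares 5 tumours labelled ATM-WT with 5 labelled ATM-KO. The ATM protein is known as a sensor kinase of broken DNA. All tumours were taken at 500 mm3, and part of each was frozen for RNA. The labels give neither the host strain and age, nor the site of the tumours, nor how the knockout was made or how many clones carried it. Whether the tumours of a group grew in different mice is not stated, and the p-values cover no more than the spread among these samples, which may be technical.

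The libraries are named here by the table's own numbers, A1 to A5 for ATM-WT and A11 to A15 for ATM-KO. Each summed to 20.2 to 22.3 M (mega) normalized counts after scaling by the authors. Estimated from the steps between low values, A2 held about 8.82 M reads and the rest 20.6 to 28.3 M. Most genes at 0 were found in A2 (4824) and A4 (4266), and the remaining libraries had 2225 to 3602. Atm messenger RNA overlapped between the groups, at 485 ± 183 (SD, n = 5) in ATM-WT and 455 ± 139 in ATM-KO (fold change -0.068 ± 0.26). It therefore does not check the labels. Of 10 epithelial markers all fell in ATM-KO, among them Krt5, listed at 0 in 3 ATM-KO libraries. Of 7 tested urothelial markers 6 fell, with Upk3a listed at 0 in every ATM-KO library. Of all genes tested, 24.3% fell. Summed epithelial markers were 87834 to 239112 in ATM-WT and 2338 to 4063 in ATM-KO, so the defining messenger RNAs of the cell line's tissue were low in the tumours labelled ATM-KO. Most of the ATM-KO sum was Krt18 and Krt14 (means 1710 ± 402 and 566 ± 301). Values below are normalized counts, means are ± SD over 5 libraries per group, and each fold change is the limma difference of log2(value + 1), ATM-KO less ATM-WT, ± SE. Adding 1 understates the change of low genes.

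Most collagen chain genes were lower in the ATM-KO tumours, and a few were higher. Of 41 tested, 22 were lower and 5 higher past a limma adjusted p of 0.05, together 27. Of all 16517 genes tested, 24.3% were lower and 22.1% higher, together 46.4%. The median log2 fold change was -1.54, against 0.0047 over all genes tested. Among the 31 chains with a mean of at least 10 in both groups, 15 were lower and 5 higher, and the share over all genes under that cut is not given here. The groups did not overlap for 18 chains, 15 of them lower in ATM-KO and 3 higher, where the same held for 18.2% and 17.0% of all genes tested, together 35.2%. The 5 higher chains were Col5a3, Col28a1, Col18a1, Col27a1 and Col7a1. Lower by more than 3 on the log2 scale were 8 chains (Col17a1, Col8a2, Col4a4, Col11a1, Col4a3, Col25a1, Col4a6 and Col6a5), where 5.62% of all genes tested were. Of these, Col17a1, Col8a2, Col4a4, Col4a3 and Col25a1 had an ATM-KO mean under 10 and passed the minimum mean only through ATM-WT. The same chains are among the 15 lower ones without overlap, so the rule partly sets both counts. In bulk tumours, fewer cells of a type and less messenger RNA per cell cannot be told apart.

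**Figure D1:**
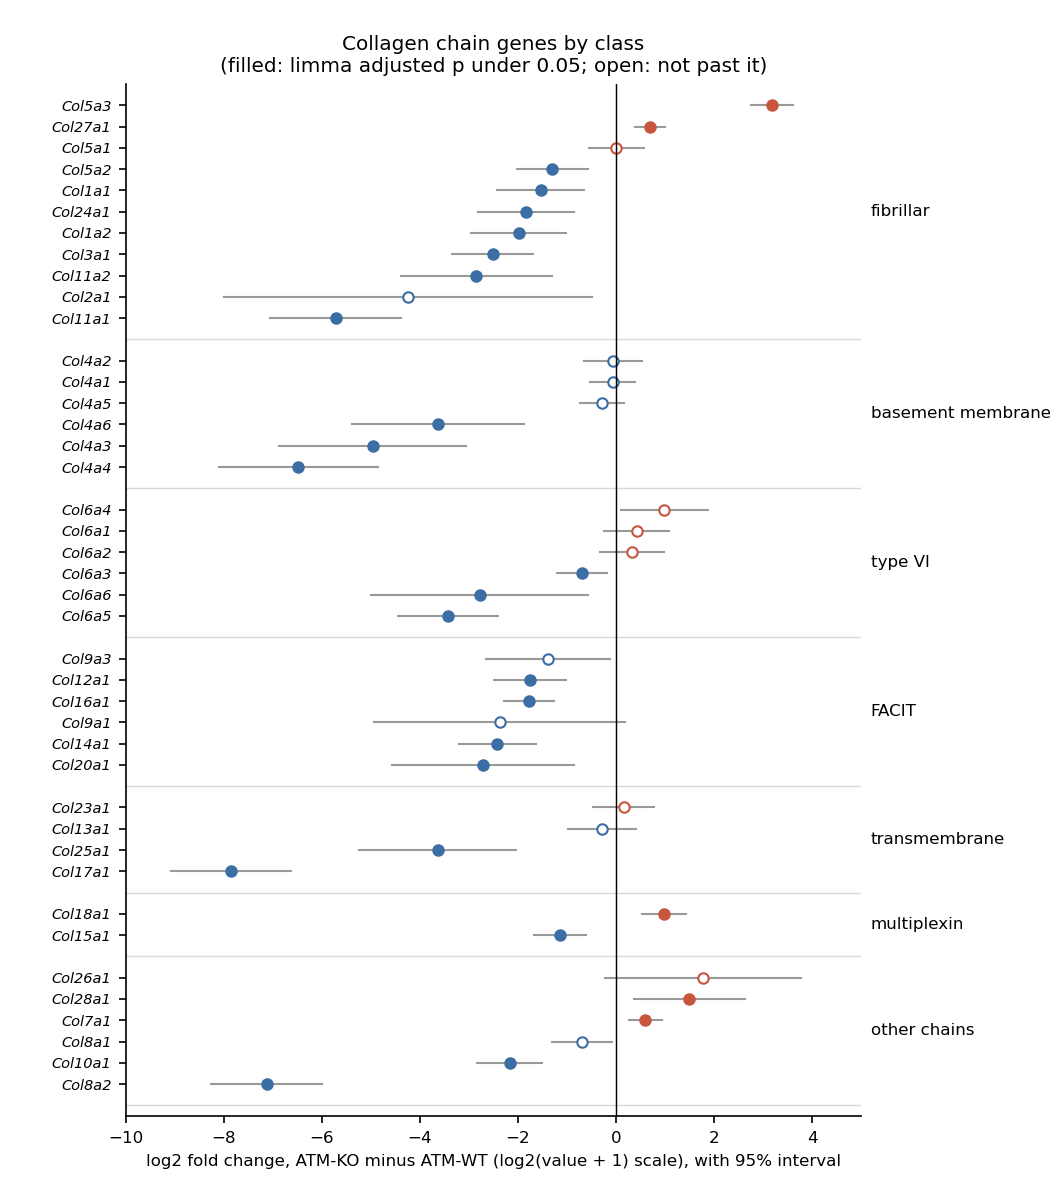
Log2 fold change (ATM-KO minus ATM-WT, x axis) of each of the 41 collagen chain genes with its 95% interval, grouped by class; filled points are past a limma adjusted p of 0.05. The lower chains reach -7.85 (Col17a1), and Col5a3 stands alone among the higher ones at 3.18.

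The share of a library that fell on the collagen genes was lower on average in ATM-KO, but overlapped between the groups. It was 3.80, 1.12, 3.66, 1.77 and 1.80% of all normalized counts in ATM-WT libraries A1 to A5, and 1.41, 0.994, 1.33, 1.13 and 1.21% in ATM-KO libraries A11 to A15. A2 lay within the ATM-KO range, and A1 and A3 stood above all others. Col1a1, Col1a2 and Col3a1 made up 60.5% to 68.3% of the collagen counts in ATM-WT and 15.2% to 33.2% in ATM-KO. Col5a3 held 0.709% to 1.53% of them in ATM-WT and 15% to 24.2% in ATM-KO. For Col6a1, Col6a2 and Col6a3 together the share was 13.1% to 15.4% and 24.8% to 29.7%. Without Col1a1, Col1a2 and Col3a1, the other 38 held 0.443% to 1.23% of an ATM-WT library and 0.819% to 0.944% of an ATM-KO library, so that the ATM-KO values lay inside the ATM-WT range. Long transcripts weigh more in such sums, and no test was run on them.

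**Figure D2:**
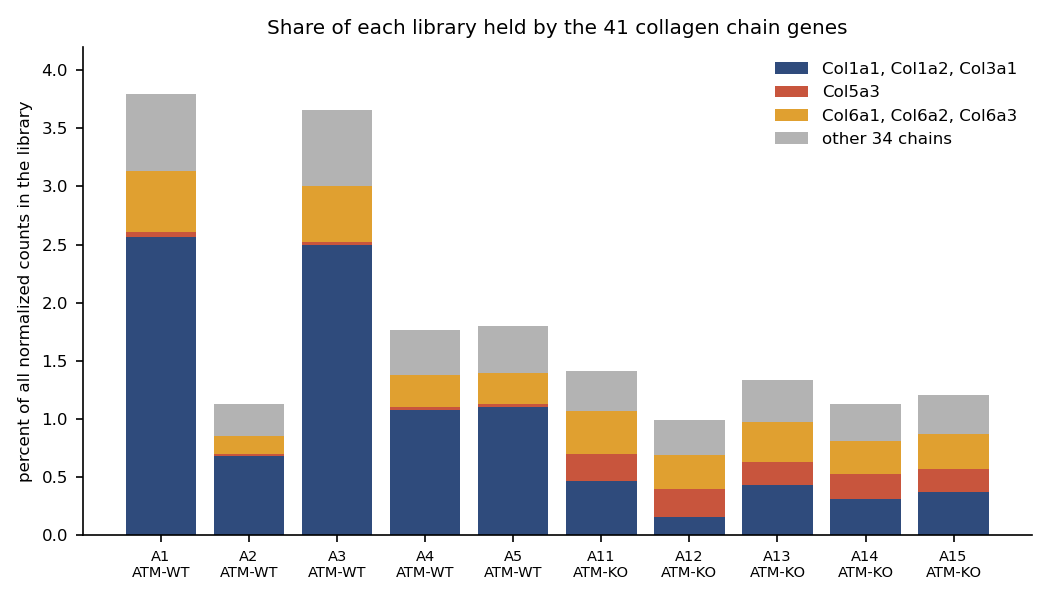
Percent of all normalized counts in each library (y axis) that fell on the 41 collagen chain genes, stacked by chains. The type I and III chains (dark blue) fill most of each ATM-WT bar, and Col5a3 (red) shows in the 5 ATM-KO bars, at 15% to 24.2% of the collagen counts.

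The sequences just upstream of 4 genes are shown because these genes stand for the main directions of change: Col1a2 and Col3a1 for the lower fibrillar chains, Col5a3 for the chain with the largest rise, and Col17a1 for the largest fall. Each run is the 250 bases before the gene's start in RefSeq (build GRCm38.p6), 5′ to 3′ on the gene's strand. Capitals mark every match, on either strand, to one of 4 motifs. The CCAAT box was searched by the letters in its name. The GC box was searched as GGGCGG. For the TATA box the letters were TATAAA. The AP-1 site was searched as TGANTCA. Col1a2 lies on the plus strand (chr6:4505368-4505617), Col3a1 on the plus strand (chr1:45311288-45311537), Col5a3 on the minus strand (chr9:20815068-20815317) and Col17a1 on the minus strand (chr19:47692043-47692292).
Col1a2: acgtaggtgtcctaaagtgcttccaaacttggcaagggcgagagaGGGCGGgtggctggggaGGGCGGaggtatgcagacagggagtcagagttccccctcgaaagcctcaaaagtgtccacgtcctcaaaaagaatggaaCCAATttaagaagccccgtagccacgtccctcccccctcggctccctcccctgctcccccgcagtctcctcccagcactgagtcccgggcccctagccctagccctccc
Col3a1: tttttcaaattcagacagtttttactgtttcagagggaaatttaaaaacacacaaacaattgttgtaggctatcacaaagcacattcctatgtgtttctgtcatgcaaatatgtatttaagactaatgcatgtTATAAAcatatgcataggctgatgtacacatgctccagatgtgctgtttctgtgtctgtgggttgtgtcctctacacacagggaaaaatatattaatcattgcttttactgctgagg
Col5a3: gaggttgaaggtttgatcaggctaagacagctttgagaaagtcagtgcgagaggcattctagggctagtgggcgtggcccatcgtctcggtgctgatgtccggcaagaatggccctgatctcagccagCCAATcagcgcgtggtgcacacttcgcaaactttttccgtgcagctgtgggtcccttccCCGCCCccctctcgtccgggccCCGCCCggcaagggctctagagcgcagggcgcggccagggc
Col17a1: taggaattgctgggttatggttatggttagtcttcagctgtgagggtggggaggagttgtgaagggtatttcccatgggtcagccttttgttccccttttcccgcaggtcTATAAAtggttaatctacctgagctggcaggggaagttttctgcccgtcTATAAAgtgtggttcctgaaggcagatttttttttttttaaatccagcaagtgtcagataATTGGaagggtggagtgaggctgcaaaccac

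The Col1a2 and Col5a3 windows have the same counts of the searched motifs: each holds 1 CCAAT box and 2 GC boxes, and no TATA box or AP-1 site. Their sequences and motif positions differ, and the GC boxes read GGGCGG in Col1a2 and CCGCCC in Col5a3. Whether these windows bear on the fall of Col1a2 or the rise of Col5a3 was not tested. Neither the Col3a1 nor the Col17a1 window holds a GC box. Col3a1 has 1 TATA box, and Col17a1 has 2 TATA boxes and 1 CCAAT box. CpG pairs number 11 in Col1a2, 17 in Col5a3, 2 in Col17a1 and 0 in Col3a1, against a median of 6 over all 32851 windows of this length. Of all windows, 33.8% hold a CCAAT box, 32.7% a GC box, 12.4% a TATA box and 6.75% an AP-1 site. The table has 36 windows for 33 of the 41 chains, of which 13 hold a CCAAT box, 21 a GC box, 5 a TATA box and 1 an AP-1 site. These matches describe letters and show no binding.

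Among fibrillar chains, the abundant type I and III genes fell and Col5a3 rose. Of 11 tested, 7 fell, 2 rose and 2 did not pass, with a median of -1.84, where 24.3% of all genes tested fell and 22.1% rose. Col3a1 encodes type III collagen, which accompanies type I in soft tissue, and its libraries held 201352, 80282, 255722, 126597 and 112995 in ATM-WT and 35427, 10022, 36306, 24378 and 30857 in ATM-KO. Every ATM-KO library lay below every ATM-WT library, and Col3a1 fell by 2.51 ± 0.38 on the log2 scale (limma adjusted p = 1.74e-04). Col1a1, the major chain of type I collagen, stood at 209916, 44543, 163024, 64062 and 72851 in ATM-WT and at 45785, 16687, 41830.3, 30036 and 36117 in ATM-KO. The groups overlapped only by A2 and A11, A1 and A3 were far above the other ATM-WT libraries, and A12 was the lowest of all (fold change -1.54 ± 0.41, limma adjusted p = 0.0083). Its partner chain Col1a2 was at 116366, 22783, 106859, 35938 and 36839.9 and at 20230.3, 6273, 15186, 12867 and 15419.9, with no overlap (fold change -1.99 ± 0.45, limma adjusted p = 0.0029).

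Col5a3, a chain of type V collagen made in fewer tissues than its partners, moved the other way. Its ATM-WT libraries held 8426, 3263, 5455, 4771 and 5578 normalized counts, and its ATM-KO libraries 49564, 52431, 42917, 48704 and 45132. The ATM-KO libraries were close to each other and 8.68 times the ATM-WT mean (fold change 3.18 ± 0.20, 95% interval from 2.75 to 3.61, limma adjusted p = 2.32e-07). The other type V chains, which start the assembly of type I fibrils, did not follow. Col5a1 ranged over 10383 to 34317 in ATM-WT (median 21156) and 18331 to 22220.0 in ATM-KO (median 20241), with a fold change of 0.0043 ± 0.26 (95% interval from -0.55 to 0.56, limma adjusted p = 0.99). Without A2 and A4 that value was -0.42 and passed (limma adjusted p = 0.037), so the direction for Col5a1 rests on these libraries. Col5a2 fell from 6850.0 ± 3354 to 2664 ± 867 (fold change -1.30 ± 0.33, limma adjusted p = 0.0063). Per kilobase of the longest coding transcript, Col5a3 averaged 899 ± 307 in ATM-WT, below Col5a1 (2600.3 ± 1106) and Col5a2 (1034 ± 506). In ATM-KO the per-kilobase level of Col5a3 was 7804 ± 613, above Col1a1 (5749 ± 1923) and Col3a1 (4924 ± 1942).

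The fibrillar chains best known from cartilage and bone were mostly low in ATM-KO. Col11a1, a chain of the thin fibrils of cartilage that activated fibroblasts also make, was at 2082, 284, 989, 526 and 384 in ATM-WT and 23.4, 3.02, 8.14, 27.9 and 10.3 in ATM-KO (fold change -5.72 ± 0.61, limma adjusted p = 1.23e-05). Col11a2, its partner, was at 1206, 92.3, 548, 149.8 and 92.7 and 26.4, 77.3, 24.9, 14.2 and 52.3 (fold change -2.85 ± 0.71, limma adjusted p = 0.0054). Neither gene overlapped between the groups, and A1 and A3 were the highest for both. Col2a1, the main fibril chain of cartilage, ranged over 0 to 746 in ATM-WT (median 161) and 0 to 3.56 in ATM-KO (median 0) and did not pass (fold change -4.24 ± 1.73, limma adjusted p = 0.061). Its value rested on single libraries: it was -3.08 without A1, -3.58 without A3 and -3.63 without A4 (limma adjusted p = 0.14, 0.13 and 0.13). It passed at -5.47 without A2 or without A5, the ATM-WT libraries that list it at 0 (limma adjusted p = 0.012 and 0.015). It also passed with a pseudocount of 5 (-3.30, limma adjusted p = 0.041) and without A2 and A4 (-5.05, limma adjusted p = 0.031). Col24a1, of developing bone, fell from 325 ± 141 to 99.5 ± 62.1 (fold change -1.84 ± 0.45, limma adjusted p = 0.0051), and Col27a1, of cartilage, rose without overlap, from 1845 ± 372 to 2956 ± 354 (fold change 0.69 ± 0.14, limma adjusted p = 0.0015).

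Markers of cartilage and bone moved with these chains. Of 9 tested, 7 fell and 1 rose, where 24.3% and 22.1% of all genes tested did. The median was -3.80, and no marker was at 0 in all libraries of a group. Their summed level was 27523, 2710.2, 16755, 5843 and 2900.2 in A1 to A5 and 3554 to 4070.1 in ATM-KO. The sum was highest in A1 and A3, the libraries with the most Col11a1, Col11a2 and Col2a1, where Ibsp made up most of it. In A2 and A5 the sum lay below the ATM-KO libraries. Most of the ATM-KO sum was Runx2 and Sox9 (means 2638 and 1135), the markers that did not fall, so it does not rank the libraries by the markers that fell. Ibsp, a bone sialoprotein gene, fell from 7098 ± 8885 to 15.2 ± 2.64 with 20677 in A1 and 11564 in A3. Runx2, a regulator of bone formation, rose from 1424 ± 430.0 to 2638 ± 228, and Sox9, the regulator of cartilage, did not pass (fold change 0.17 ± 0.10, limma adjusted p = 0.19). The part of such cells in the collagen result was not tested.

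Among basement membrane chains, Col4a3, Col4a4 and Col4a6 fell. The 6 type IV genes lie head to head in 3 neighbouring pairs, and of them 3 fell and 3 did not pass. That share called was near the 46.4% of all genes tested, where 24.3% were lower and 22.1% higher. Col4a1 and Col4a2, the chains of nearly every basement membrane, were among those that did not pass. Col4a1 was at 12688, 5520.5, 9906, 7952 and 6346 in ATM-WT and 7339, 5679, 8633, 8797 and 8817 in ATM-KO, a fold change of -0.065 ± 0.21 (95% interval from -0.52 to 0.39, limma adjusted p = 0.82). Col4a2 was at 9163, 2756, 8174, 5107 and 4592 and 5059, 3904, 6072, 5755 and 5646, a fold change of -0.063 ± 0.27 (95% interval from -0.66 to 0.53, limma adjusted p = 0.87). Both ranges overlapped widely, and the ATM-WT libraries spread further than the ATM-KO libraries.

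The second pair, Col4a3 and Col4a4, whose products join Col4a5 in a network known from kidney and lung, fell to near 0. Col4a4 was listed at 643, 66, 545, 148 and 137 in ATM-WT and at 4.07, 5.52, 1.52, 0 and 0 in ATM-KO (fold change -6.49 ± 0.75, limma adjusted p = 2.12e-05). For Col4a3 the values were 308, 17.2, 264, 52.3 and 71.9 and 0, 7.39, 0, 5.36 and 2.66 (fold change -4.96 ± 0.88, limma adjusted p = 5.44e-04). Neither overlapped, and A1 and A3 were again the highest ATM-WT libraries for both. About 5.65% of the exonic bases of Col4a3 in GENCODE M21 also lie in C430014B12Rik on the opposite strand, and whether counting used strand is not given in the sources used here.

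In the third pair the chains parted. Col4a5, which joins either network, was at 3143, 1931, 4237, 3143 and 2074 in ATM-WT and 2084, 2774, 2523, 1732 and 2517 in ATM-KO, with no call (fold change -0.28 ± 0.21, 95% interval from -0.73 to 0.17, limma adjusted p = 0.29). Col4a6, whose product pairs with Col4a5 under stratified epithelium and around smooth muscle, was at 105, 337, 65.9, 277 and 112 and 11.9, 111, 6.32, 5.18 and 2.94 (fold change -3.63 ± 0.81, limma adjusted p = 0.0027). Among ATM-WT libraries Col4a6 was highest in A2 and A4, the reverse of most chains, and a single ATM-KO library, A12, reached the ATM-WT range. A12 also had the highest summed epithelial markers of the ATM-KO libraries (4063, against 2338 to 2997 in the others). Most of the A12 sum was Krt18 and Krt14 (2197 and 1076), and Krt5 was listed at 0 there. The part of epithelial cells in the Col4a6 value was not tested. Without A12 the fold change of Col4a6 was -4.44 (limma adjusted p = 8.40e-05).

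Among type VI chains, Col6a3, Col6a5 and Col6a6 fell, and Col6a1 and Col6a2 of the common filament did not pass. Of 6 tested, 3 fell and 3 did not pass, with a median of -0.18. The share called was near the 46.4% of all genes tested, where 24.3% were lower and 22.1% higher. Col6a1 was at 42466, 10785, 36873, 18893 and 19175 in ATM-WT and 35537, 30598, 31628, 25889.7 and 29863 in ATM-KO (fold change 0.42 ± 0.31, 95% interval from -0.24 to 1.09, limma adjusted p = 0.28). Col6a2, its neighbour on the chromosome, was at 35723, 9816, 33104, 16111 and 16065 and 29545, 24217, 25874, 20818 and 24362 (fold change 0.33 ± 0.30, 95% interval from -0.33 to 0.98, limma adjusted p = 0.4). For both, the ATM-KO values lay inside the wide ATM-WT range, and without A2 and A4 the sign turned (-0.025 and -0.11, limma adjusted p = 0.93 and 0.74). Col6a3, the long chain that completes the filament, was at 29762, 12743, 30889, 21942 and 19299 and 15596, 9556, 16134, 14787 and 12532 (fold change -0.70 ± 0.23, limma adjusted p = 0.026). That call was narrow, and was lost without A1, A3, A12 or A15 (limma adjusted p = 0.057, 0.059, 0.071 and 0.057) and with eBayes without trend (0.051).

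Col6a4, Col6a5 and Col6a6 encode long chains that can stand in for the Col6a3 product, lie next to each other on chromosome 9 and are related copies, so that counting may have split reads between them. Col6a5 was at 2212, 469, 2765, 912 and 753 in ATM-WT and 173, 77, 165, 59.6 and 98 in ATM-KO, with no overlap (fold change -3.43 ± 0.47, limma adjusted p = 7.60e-05). Col6a6 was listed at 11, 0, 69, 18.4 and 4.75 and 1.97, 0, 0, 1.07 and 0 (fold change -2.78 ± 1.02, limma adjusted p = 0.041), a call lost without A1, A12, A13, A14 or A15 (limma adjusted p up to 0.081) and after quantile normalization (0.12). Its fold change was -1.60 with a pseudocount of 5 and -3.60 without A2 (limma adjusted p = 0.045 and 0.0031). Col6a4 ranged over 23.5 to 67.1 in ATM-WT (median 35) and 36 to 152 in ATM-KO (median 81.1) and did not pass (fold change 0.98 ± 0.41, limma adjusted p = 0.065). It passed as higher without A3 or A13 and after quantile normalization (limma adjusted p = 0.031, 0.025 and 0.0064). Its fold change was positive beside neighbours that fell.

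The FACIT chains were lower in ATM-KO, with 4 of 6 tested falling, none rising and a median of -2.08. Of all genes tested 24.3% fell and 22.1% rose. Col12a1, which binds type I fibrils in dense connective tissue, was at 21215, 8202, 30998, 10710.5 and 12943 in ATM-WT and 5588, 2378, 5283, 4813 and 5034 in ATM-KO (fold change -1.76 ± 0.34, limma adjusted p = 0.001). Col14a1, a relative that also binds fibrils, was at 789.5, 265, 855, 374 and 413 and 177, 87.8, 97.4, 58.5 and 68 (fold change -2.42 ± 0.37, limma adjusted p = 1.69e-04). Col16a1, found with small fibrils and beside microfibrils, was at 4488, 3663, 10255, 5019 and 4375 and 1769, 1693, 1362, 1182 and 1589 (fold change -1.78 ± 0.23, limma adjusted p = 5.68e-05). None of these overlapped between the groups, and A3 was the highest library for each. Col20a1 was at 35, 14.9, 114, 15.6 and 24 and 21.2, 0.562, 2.06, 12 and 0.634, overlapping (fold change -2.71 ± 0.85, limma adjusted p = 0.02), and lost its call without A12 or A15 and after quantile normalization (limma adjusted p = 0.0504, 0.051 and 0.056).

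Type IX chains, which coat cartilage fibrils, were low throughout. Col9a3 ranged over 15.3 to 71.2 in ATM-WT (median 48.9) and 5.00 to 38.5 in ATM-KO (median 12.1) and did not pass (fold change -1.39 ± 0.58, limma adjusted p = 0.068), though it passed without A4 or A12 (limma adjusted p = 0.024 and 0.035) and with array weights (0.037). Col9a1 was listed at 3.53, 7.41, 98.3, 0 and 0 in ATM-WT and at 0 in every ATM-KO library, and did not pass (limma adjusted p = 0.12). Below the minimum mean, Col9a2 was listed at 12.6, 0, 22.1, 1.62 and 14.2 in ATM-WT and at 0 in every ATM-KO library. Col22a1, the FACIT of tissue junctions, was listed at 1.96, 0, 3.81, 0 and 20.7 and 8.86, 19.6, 13.1, 4.40 and 2.18, and neither was tested.

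Transmembrane chains held the largest fall of the family. Of 4 tested, 2 fell and 2 did not pass, a share called near the 46.4% of all genes tested, where 24.3% were lower. Col17a1, the hemidesmosome collagen of basal epithelial cells, was at 944, 4111, 774, 4523 and 1551 in ATM-WT and 14, 4.28, 6.92, 13.8 and 2.46 in ATM-KO (fold change -7.85 ± 0.56, limma adjusted p = 6.19e-07). The groups lay far apart, and within ATM-WT the libraries A2 and A4 were highest, as they were for the summed epithelial markers (90087, 239112, 87834, 188192 and 145912 in A1 to A5). The part of epithelial cells in this result was not tested. Col25a1, known from neurons, was at 92.7, 17.3, 70.9, 52.7 and 97.4 and 2.41, 3.96, 15.7, 6.78 and 0 (fold change -3.64 ± 0.74, limma adjusted p = 0.0014). Col23a1 was at 942, 326, 1127, 863 and 699.9 and 698, 729, 1173, 815 and 742, overlapping (fold change 0.16 ± 0.28, 95% interval from -0.46 to 0.77, limma adjusted p = 0.68). Col13a1, of cell and nerve-muscle contacts, was at 60.3, 51.3, 112, 80.3 and 64.6 and 43.5, 73.5, 38.1, 87.3 and 63, overlapping as well (fold change -0.28 ± 0.32, 95% interval from -0.98 to 0.41, limma adjusted p = 0.5).

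Several other hemidesmosome genes were lower too. Of 7 hemidesmosome and linked genes tested, 4 fell and 2 rose, with a median of -2.01, where 24.3% of all genes tested fell and 22.1% rose. Itgb4, the integrin chain of the hemidesmosome, fell from 1708 ± 784 to 53.1 ± 10.4, and the laminin chain gene Lama3 fell from 1155 ± 395 to 105 ± 9.09. Itga6, the partner of Itgb4, fell from 2607 ± 750.2 to 631 ± 94.8. The linker genes Plec (from 7329 ± 1910.1 to 10962 ± 1237) and Dst (from 2696 ± 669.8 to 3841 ± 450.4) were the members that rose. The cause of either direction was not tested.

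The multiplexin genes went opposite ways without overlap between the groups, as 35.2% of all genes tested also did not overlap. Col18a1, whose protein is the source of endostatin, was at 7801, 3062, 6164, 4274 and 4855 in ATM-WT and 10712, 10295, 10417, 7872 and 9964 in ATM-KO (fold change 0.98 ± 0.21, limma adjusted p = 0.0019). Col15a1, its relative around vessels and muscle, was at 934, 585, 808, 1476 and 1313 and 414, 363, 341, 561 and 562 (fold change -1.14 ± 0.25, limma adjusted p = 0.0021). Endothelial markers, whose vessels are a known site of both proteins, gave 0 higher and 1 lower of 12 tested, where 22.1% and 24.3% of all genes tested were. Their median was 0.0079, and they summed to 3466 to 6178 in ATM-WT and 3075 to 5898 in ATM-KO.

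The 6 chains outside these classes gave 2 higher and 2 lower, where 22.1% and 24.3% of all genes tested were. Col7a1, the anchoring fibril collagen below stratified epithelium, was at 4782, 6939.8, 5537, 7686 and 6854 in ATM-WT and 6868, 11228, 10106, 9852 and 9959 in ATM-KO (fold change 0.60 ± 0.16, limma adjusted p = 0.0073). The groups overlapped, since A11 lay within the ATM-WT range. Col7a1 thus rose where Col17a1, its neighbour in the epithelial anchoring complex, fell, and A2 and A4 were the highest ATM-WT libraries for both. Col28a1, a low gene known from nerve sheaths, ranged over 5.24 to 28 in ATM-WT (median 17.4) and 19.7 to 91.4 in ATM-KO (median 56.6) (fold change 1.5 ± 0.52, limma adjusted p = 0.032). Its call was lost without A1, A5, A11, A14 or A15 (limma adjusted p from 0.053 to 0.09), and quantile normalization moved its fold change to 2.37. Col26a1 was low in both groups, at 0 to 17 in ATM-WT (median 2.65) and 3.59 to 34 in ATM-KO (median 10.2), and did not pass (limma adjusted p = 0.13), except after quantile normalization (limma adjusted p = 0.025).

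The short-chain collagens, which build open lattices, were lower or not past the threshold. Col8a2 was at 2226, 768, 2106, 674 and 586 in ATM-WT and 21.5, 4.62, 6.10, 2.68 and 7.10 in ATM-KO, the second largest fall of the family (fold change -7.13 ± 0.52, limma adjusted p = 6.87e-07). Col8a1, its partner in type VIII collagen of vessel walls and the cornea, was at 7452, 2719.9, 9290.0, 3838 and 3711 and 3618, 2796, 2588, 3308 and 2764 and did not pass (fold change -0.70 ± 0.29, limma adjusted p = 0.062). It passed as lower without A2 and with array weights or quantile normalization (limma adjusted p = 0.011, 0.024 and 0.033). Col10a1, known from hypertrophic cartilage, was at 4492, 1751, 1960.2, 1293 and 1473 and 475, 528, 325, 323 and 599, with no overlap (fold change -2.17 ± 0.30, limma adjusted p = 9.09e-05).

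**Figure D3:**
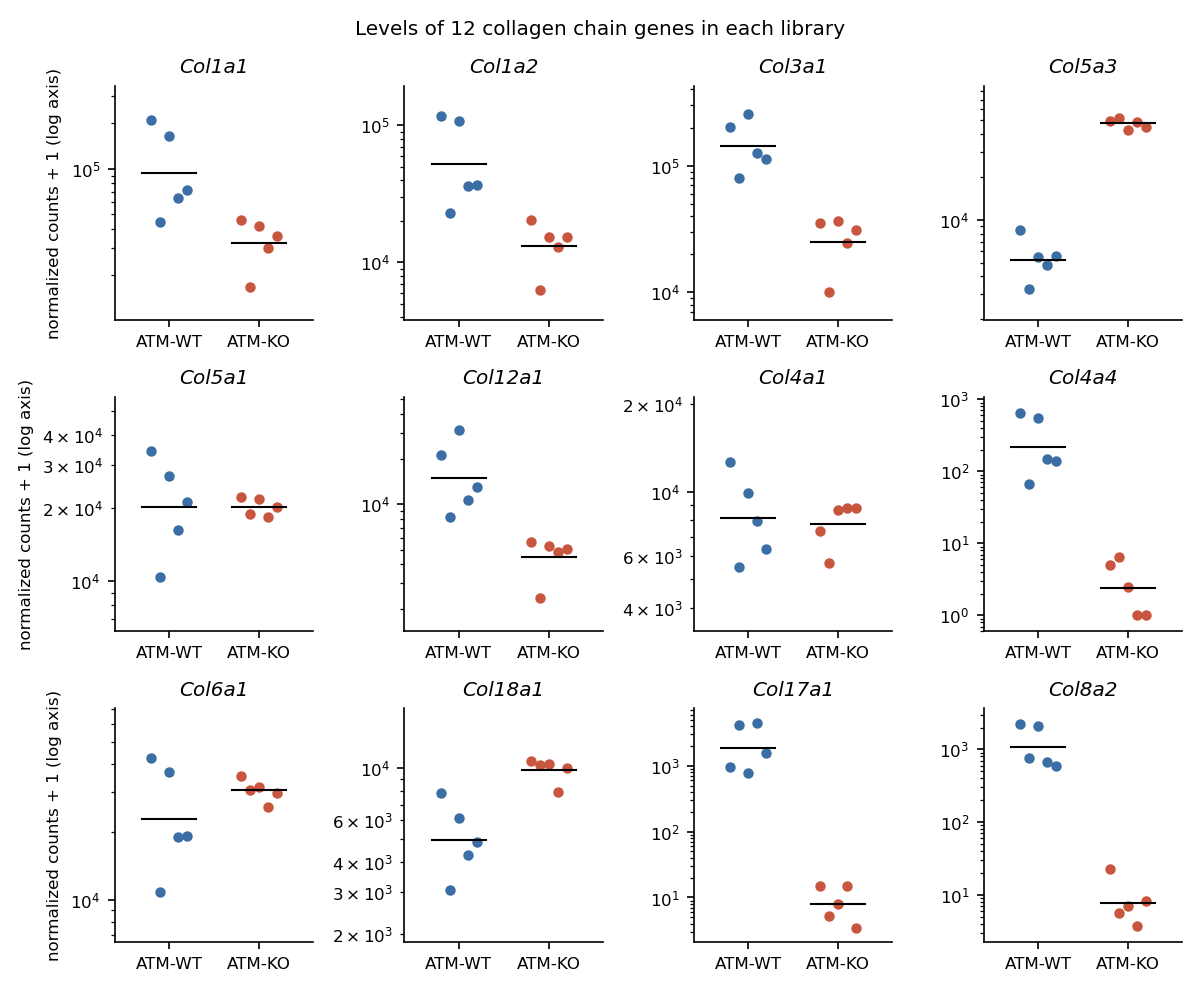
Normalized counts + 1 (y axis, log scale, set for each gene) of 12 collagen chain genes in the 5 ATM-WT and 5 ATM-KO libraries; each point is a library and the line is the geometric mean of the group. Col5a3 and Col18a1 lie higher in ATM-KO, Col5a1, Col4a1 and Col6a1 overlap, and Col4a4, Col17a1 and Col8a2 lie lower without overlap.

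Pairs of chains were next compared within each library. Of 11 pairs, 9 join chains of the same collagen type, 1 sets type III against type I (Col3a1 over Col1a1) and 1 sets both multiplexins against each other (Col15a1 over Col18a1). The ratio is nearly free of a library's scaling, except where a chain is low and the added 1 weighs. For each pair the mean of log2((a + 1)/(b + 1)) was compared between groups by an exact two-sided permutation test over all assignments of 5 against 5, whose smallest p is 0.0079, adjusted over the 11 ratios. The pairs were chosen with earlier results of these data known. Each difference equals the fold change of the first chain less that of the second, so the ratios restate the same values and add no separate support. Past 0.05 were 9 ratios, and 7 of these did not overlap between the groups.

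For the type IV pair Col4a1 over Col4a2 no difference passed, with log2 ratios of 0.57 ± 0.27 in ATM-WT and 0.57 ± 0.057 in ATM-KO, a difference of -0.0028 (exact permutation p = 1, 1 adjusted over the 11 ratios). Without A2 and A4 the difference was 0.16 and passed (exact permutation p = 0.025 adjusted). Col6a1 over Col6a2 moved by little, but beyond the spread, with 0.21 ± 0.056 in ATM-WT and 0.30 ± 0.027 in ATM-KO, a difference of 0.095 (exact permutation p = 0.0079, 0.012 adjusted over the 11 ratios). Col1a1 over Col1a2, whose products join in type I collagen with more of the former, was 0.85 ± 0.15 in ATM-WT and 1.30 ± 0.13 in ATM-KO, a difference of 0.45 (exact permutation p = 0.0079, 0.012 adjusted over the 11 ratios). Per kilobase of transcript that ratio was 1.63 ± 0.163 in ATM-WT and 2.23 ± 0.199 in ATM-KO. The SD of these 3 log2 ratios within a group was at most 0.27.

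Other pairs came apart, and 5 of them did so without overlap between the groups (each with exact permutation p = 0.0079, 0.012 adjusted over the 11 ratios). Col8a1 over Col8a2 was 2.17 ± 0.41 in ATM-WT and 8.61 ± 0.90 in ATM-KO, a difference of 6.43, the largest shift of the 11. Col8a2 had an ATM-KO mean of 8.39 and passed the minimum mean only through ATM-WT, so the rule partly sets this shift. Col5a1 over Col5a2, partners in type V collagen, was 1.70 ± 0.23 in ATM-WT and 3.00 ± 0.50 in ATM-KO, a difference of 1.30. Within the type VI filament, Col6a3 over Col6a1 was -0.061 ± 0.32 in ATM-WT and -1.18 ± 0.33 in ATM-KO, a difference of -1.12. Col3a1 over Col1a1, which compares type III with type I, was 0.61 ± 0.40 in ATM-WT and -0.37 ± 0.22 in ATM-KO, a difference of -0.98. The multiplexin ratio of Col15a1 over Col18a1 was -2.36 ± 0.66 in ATM-WT and -4.48 ± 0.48 in ATM-KO, a difference of -2.12.

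In the ratios past the threshold that did overlap, the spread was wide. Col4a5 over Col4a6 was 4.22 ± 1.32 in ATM-WT and 7.57 ± 1.79 in ATM-KO, a difference of 3.35 (exact permutation p = 0.024, 0.029 adjusted over the 11 ratios). Col11a1 over Col11a2 was 1.42 ± 0.57 in ATM-WT and -1.45 ± 2.00 in ATM-KO, a difference of -2.87 (exact permutation p = 0.024, 0.029 adjusted over the 11 ratios). Both calls were lost without A2, A4 or A5, and that of Col4a5 over Col4a6 also without A15 (exact permutation, adjusted p from 0.055 to 0.068). The difference was then -2.82, -2.77 and -2.72 for Col11a1 over Col11a2. For Col4a5 over Col4a6 it was 2.93, 3.17, 3.35 and 2.92. Leaving out a library also leaves fewer assignments to permute, which makes the p-values coarser. Without A12 the difference was 4.09 for Col4a5 over Col4a6 and -2.16 for Col11a1 over Col11a2, and the latter was -3.47 without A14. Col4a3 over Col4a4 did not pass (exact permutation p = 0.17, 0.18 adjusted over the 11 ratios), with ATM-KO values near 0 in both genes. It passed without A11 (difference 2.17, exact permutation p = 0.039 adjusted) and with a pseudocount of 5 (0.0097 adjusted), and its difference was 0.92 without A14.

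**Figure D4:**
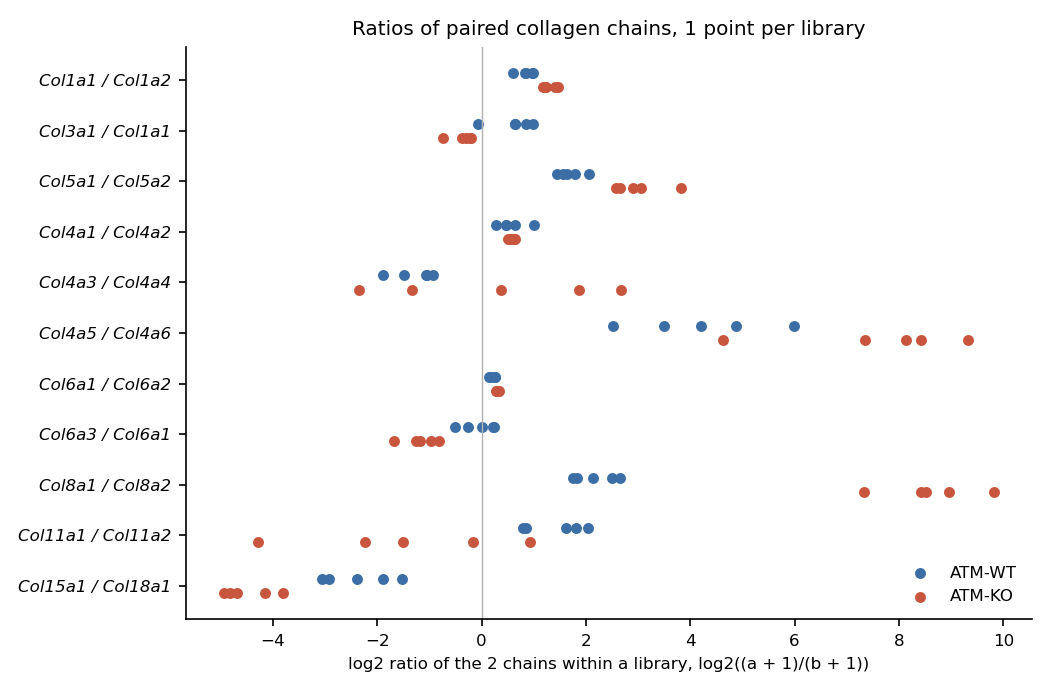
Log2 ratio of paired collagen chains within each library (x axis) for 11 pairs (y axis); each point is a library. Col6a1 over Col6a2 lies between 0.14 and 0.34 in all 10 libraries, while Col8a1 over Col8a2 lies at 1.74 to 2.66 in ATM-WT and at 7.33 to 9.81 in ATM-KO.

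Collagen levels varied more among ATM-WT tumours than among ATM-KO tumours. Among the 31 chains with a mean of at least 100, 26 had the larger SD of log2 values in ATM-WT, with a median SD of 0.71 against 0.41 in ATM-KO. Over all 12119 genes tested at that mean the medians were 0.30 and 0.16, so the wider ATM-WT spread was not particular to collagens. The share of those genes with the larger SD in ATM-WT is not given here. Many chains ranked the ATM-WT libraries alike: A1 and A3 were the highest 2 of the 5 for 26 of the 41 chains, and A2 was the lowest for 29. These counts over all genes tested are not given here, and A2 was the library with the fewest estimated reads. Whether the ranking is particular to collagens was therefore not tested. The exceptions with A2 and A4 highest were Col4a6, Col17a1 and Col7a1. The summed fibroblast markers were also highest in A1 and A3 and lowest of ATM-WT in A2, at 18602, 8874, 26129, 11714 and 11492 in A1 to A5 and 7746, 4958, 7790.2, 6678 and 7475 in A11 to A15. In ATM-KO, among the 40 chains above 0 there, A11 was the highest library for 16. A14 was the lowest for 13, among them Col5a1, Col6a1 and Col18a1, and A12 for 12, among them Col1a1, Col1a2, Col3a1 and Col12a1. A12 was also the highest for 9, among them Col5a3, Col4a6 and Col7a1, and had the lowest fibroblast sum.

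Of the 12 fibroblast markers tested, 6 fell and 2 rose, with a median of -0.96 and no marker at 0 in all libraries of a group. Pdgfra, a receptor that defines fibroblasts, fell from 1459 ± 528 to 848 ± 139, and Pdgfrb and Thy1 did not pass (fold changes -0.32 ± 0.20 and -0.074 ± 0.26). Fbln1 and Dpt, matrix genes of fibroblasts, fell from 935 ± 274 to 82.7 ± 23.6 and from 4549.6 ± 3702 to 113 ± 44.7. The mesenchymal regulator gene Twist2 and the peptidase gene Dpp4 rose from 148 ± 45.1 to 369 ± 60.5 and from 36.6 ± 19.3 to 120.4 ± 23. Pericyte and smooth muscle markers gave 4 lower and 0 higher of 10 (median -0.43), where 24.3% of all genes tested were lower and 22.1% higher. These markers summed to 13161 to 23132 in ATM-WT and 7603 to 12090.0 in ATM-KO. The part of fibroblast or pericyte content in the collagen result was not tested.

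**Figure D5:**
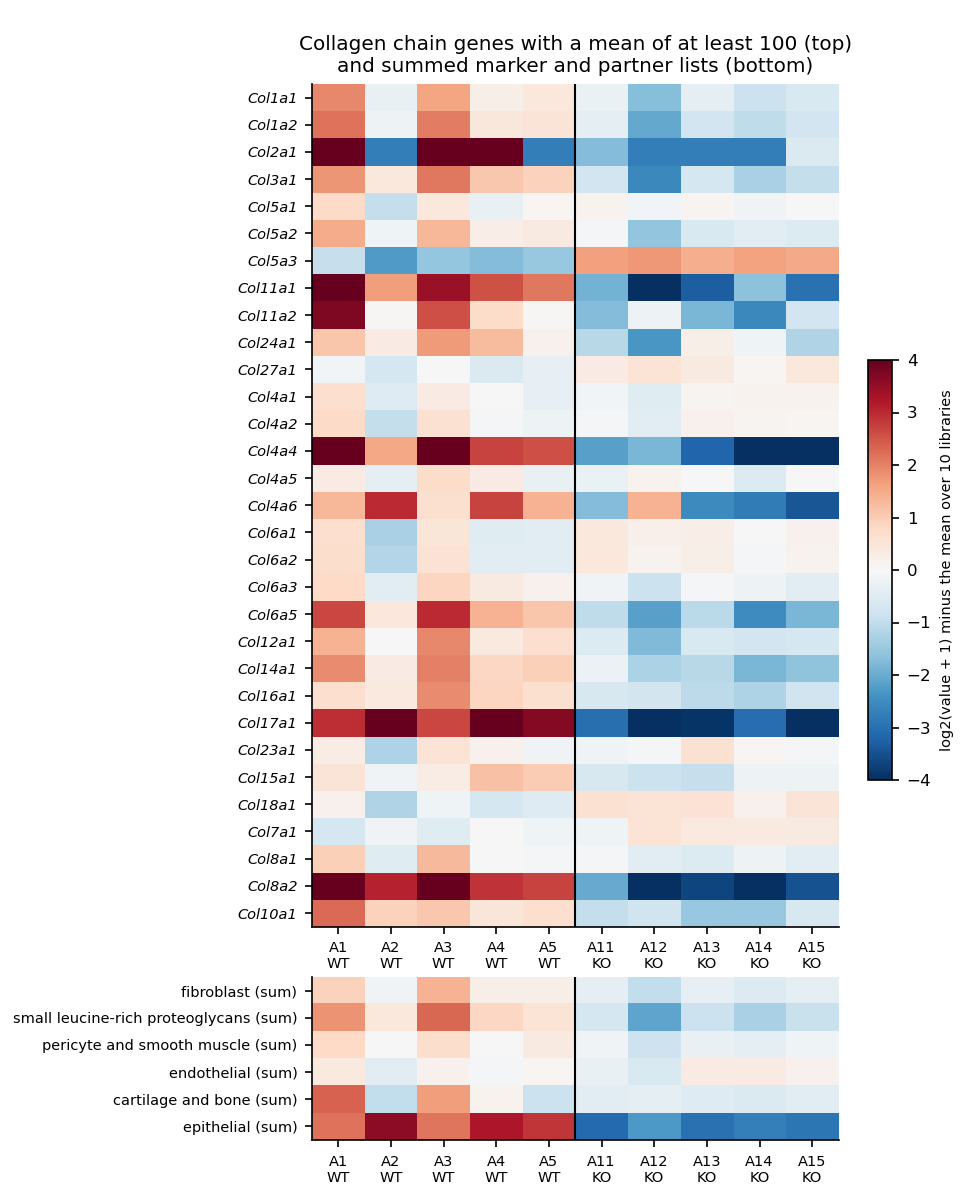
Log2(value + 1) minus its mean over the 10 libraries (colour, red above and blue below, saturated beyond 4 in either direction) for the 31 collagen chain genes with a mean of at least 100 (top rows) and for summed lists of marker and partner genes (bottom rows), by library (columns). A1 and A3 are redder than the other ATM-WT libraries for most chains, and Col4a6, Col17a1 and Col7a1 follow A2 and A4, as the epithelial sum does.

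Genes that fold, cut and cross-link collagens were called in both directions. Of 20 genes of folding and hydroxylation, 7 fell and 3 rose (median -0.028). Of all genes tested 24.3% fell and 22.1% rose, together 46.4%, and the share called in this list was near that. The members with the smallest p all fell: P3h4 from 2131 ± 607 to 625 ± 42.6, Fkbp10 from 3947 ± 1713 to 793 ± 229.7, P3h3 from 1582 ± 578 to 503 ± 82.1 and P4ha3 from 514 ± 180.2 to 173 ± 32.3. P3h4 and P3h3 belong to complexes of collagen lysine hydroxylation, Fkbp10 is a collagen chaperone of the endoplasmic reticulum, and P4ha3 is a chain of prolyl hydroxylase. The lysyl hydroxylase genes Plod1 (0.69 ± 0.25) and Plod3 (0.83 ± 0.16) and the isomerase gene Ppib (0.30 ± 0.11) were the 3 that rose, a count that ran from 1 to 5 over the alternatives.

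Of 7 tested genes of procollagen processing, 3 rose and 2 fell, where 22.1% and 24.3% of all genes tested did. Adamts14, which removes amino-terminal propeptides, rose from 439 ± 125 to 997 ± 109, and Bmp1, which removes carboxy-terminal ones, rose from 9402 ± 3320.3 to 17344 ± 1016. Tll1 and Adamts3, enzymes of the same kinds, fell from 144 ± 74.2 to 26.5 ± 10.1 and from 56.1 ± 29.5 to 6.13 ± 4.98. Among 5 cross-linking enzymes 2 fell and 1 rose: Loxl2 fell from 4071 ± 1812 to 1090.1 ± 253 and Lox from 5431 ± 2150.4 to 1679.7 ± 395, while Loxl4 rose from 180.0 ± 144 to 391 ± 38.9. Loxl3 was not past the threshold (-0.70 ± 0.30, limma adjusted p = 0.074).

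The small leucine-rich proteoglycans, which coat fibrils and set their width, moved together. Of 10 tested, 10 fell and 0 rose (median -2.15), with limma adjusted p from 3.12e-05 to 0.018. Of all genes tested 24.3% fell and 22.1% rose. Fmod fell from 5236 ± 3496 to 419 ± 186, Kera from 96.2 ± 88.3 to 0.942 ± 1.31, Bgn from 12283 ± 5739 to 2451 ± 875 and Aspn from 2874 ± 1628 to 586 ± 241. Their summed level was 20724 to 76569 in ATM-WT and 3654 to 9496 in ATM-KO, and A12 was again the lowest library.

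Collagen receptors were mostly lower, 6 of 10 tested falling and 1 rising (median -1.26), where 24.3% and 22.1% of all genes tested did. Adgrg1, an adhesion receptor that binds type III collagen, fell from 2065 ± 568 to 405 ± 60.7. Ddr1, the collagen receptor kinase of epithelia, fell from 3057 ± 397 to 1245 ± 155, and Ddr2, that of mesenchyme, did not pass (0.53 ± 0.29, limma adjusted p = 0.15). The collagen-binding integrin genes Itga2 (from 491 ± 241 to 63.7 ± 7.78) and Itga11 (from 731 ± 391 to 40.2 ± 31.4) fell, and their shared partner Itgb1 rose (from 24470.0 ± 5905 to 33055 ± 2017). Over the alternatives 0 to 3 receptors rose, so that the Itgb1 call did not hold in all of them. Of 6 collagen-degrading enzymes 4 fell and 0 rose (median -1.23), beside the same shares of all genes tested. The gelatinase genes Mmp9 and Mmp2 fell from 2794 ± 1025 to 477 ± 164 and from 12107 ± 7539.5 to 1581 ± 479. Ctsk, the collagenolytic protease of osteoclasts and fibroblasts, fell from 2039.7 ± 1366 to 539.7 ± 155 and the membrane protease gene Mmp14 fell from 19332 ± 5539.7 to 11371 ± 1363. The collagenase gene Mmp13 was high in both groups and not called, at 14489 ± 5412 in ATM-WT and 15572 ± 2923 in ATM-KO (0.19 ± 0.27, limma adjusted p = 0.59).

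Other basement membrane genes, the partners of type IV collagen, gave 5 lower and 1 higher of 13 tested (median -0.39). The share called was near the 46.4% of all genes tested, of which 24.3% were lower and 22.1% higher. Lama1, a laminin chain gene, fell from 205 ± 166 to 8.89 ± 2.91, and Lama5, the laminin chain of most epithelia, fell from 5334 ± 1481 to 2976 ± 271. The nidogen gene Nid2 fell from 785 ± 425 to 284 ± 66.6 and the proteoglycan gene Agrn from 5341 ± 769.7 to 4073 ± 483. Pxdn, the peroxidase that cross-links type IV collagen, was the member that rose, from 5695 ± 1812 to 7931 ± 456, and 0 to 2 members rose over the alternatives. Nid1 and Lamc1, like Col4a1 and Col4a2, did not pass (-0.14 ± 0.21 and 0.013 ± 0.18).

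Leaving out the sparse ATM-WT libraries A2 and A4 together left 5 chains higher and 26 lower, where 23.5% and 24.5% of 16369 genes were, and moved the median over the chains to -1.93. The fold change was then -2.07 for Col1a1, -2.85 for Col3a1, 2.91 for Col5a3 and 0.67 for Col18a1. Among lower chains with the largest shifts it was -7.03 for Col17a1 and -2.94 for Col4a6, both smaller, and -5.98 for Col4a3, -7.24 for Col4a4, -3.55 for Col11a2, -3.55 for Col6a6, -3.32 for Col20a1 and -4.23 for Col25a1, all larger.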

How the data were processed

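RNA of 10 tumours, 5 labelled ATM-WT and 5 ATM-KO, was sequenced by a company, per the labels' protocols. The deposited file is 1 table with a normalized count (unit: signal) for each of 23086 gene symbols in each library, made by the authors. Per the submitters' processing notes, the authors ran STAR, Salmon and DESeq2. The sources used here give no version, setting, genome build or annotation. Columns carry the genotype and a library number absent from the labels, so they were assigned to groups only.

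The worth of 1 read was searched in each library's low values. Among values worth at most 20 reads, the share within 0.05 of a whole number of reads was 59.1% to 69.5%. Whole reads could not be had from this, and no count model was fitted. Dividing totals by that worth gave the depth estimates; shallow libraries have more counting error in low genes.

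Genes with a mean of at least 10 (16517) were fitted by limma 3.58.1 (R 4.3.3; eBayes with trend) on log2(value + 1), with Benjamini-Hochberg adjustment over all of them and a threshold of 0.05. Only collagen chains and lists of related and marker genes are printed, and 1 gene of the hemidesmosome list is not reported here and was left out of its count. Per-library values are given for the 3 most abundant chains of a class and for those past the threshold by at least 2 on the log2 scale, and up to 4 related genes per list by smallest p, beside others chosen after their values were seen. The procedure was tested on simulated data. Members and lists were chosen with earlier results of these data known. Transcript lengths and exon overlaps come from GENCODE M21, and gene order and promoters from RefSeq GRCm38.p6. Alternatives covered the pseudocount, filter, scaling, eBayes settings, array weights and leaving out libraries. Python 3.11.15, numpy 2.4.6, pandas 2.3.3 and matplotlib 3.10.9 made the tables and figures.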

Additional observations from a re-analysis of the deposited data

Results flagged for a closer look

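In 3 of 81 groups of 5 libraries a library stood apart from the other 4 on the log2 scale by Dixon's test (gap over range above 0.71), where chance flags about 5% of groups. Col12a1 was at 2378 in ATM-KO library A12, below the 4813 to 5588 of the other ATM-KO libraries. Col18a1 was at 7872 in ATM-KO library A14, with the other ATM-KO libraries at 9964 to 10712. Col7a1 was at 6868 in ATM-KO library A11, where the rest of that group ranged from 9852 to 11228. Without the library in question, the fold changes were -1.53 for Col12a1, 1.06 for Col18a1 and 0.71 for Col7a1 (limma adjusted p = 0.0027, 0.0026 and 0.0018), and each kept its call.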

How the results depend on the processing

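Across 20 alternatives the number of higher chains was 4 to 7 and of lower chains 19 to 26 (5 and 22 in the results above), and leaving out 1 library at a time gave 4 to 6 and 19 to 24. Of 27 chains past the threshold, 23 kept direction and call in every alternative that tested them; the exceptions Col6a3, Col6a6, Col20a1 and Col28a1 kept their direction. Signs turned among chains that had not passed. For Col5a1 the fold change was -0.22 after quantile normalization, -0.071 with array weights, -0.42 without A2 and A4, and -0.24 to 0.20 with 1 library left out. With 1 library left out, Col4a1 was at -0.20 to 0.096, Col4a2 at -0.31 to 0.12 and Col23a1 at -0.13 to 0.31. Array weights gave 0.047 for Col4a1, and quantile normalization 0.31 for Col13a1. Without A2 and A4, Col6a1 was -0.025, Col6a2 -0.11 and Col23a1 -0.15. The log2 ratio of Col4a1 over Col4a2 differed by -0.076 to 0.10 with 1 library left out, and by 0.16 without A2 and A4. A pseudocount of 5 shrank the fold changes of low chains, to -3.67 for Col4a3, -5.02 for Col4a4, -2.71 for Col25a1 and -1.83 for Col20a1, and the ratio difference of Col8a1 over Col8a2 to 5.78. Chain ratios past the threshold numbered 7 to 10. The difference in the collagen share of a library was -1.22 percentage points, -1.54 to -0.873 with 1 library left out and -1.87 without A2 and A4. Quantile normalization moved the median of all genes tested from 0.0047 to 0.15. Counts within lists are small and moved by over 1.5 times in several. Among risers, folding and hydroxylation genes gave 1 to 5 higher, collagen receptors 0 to 3, other basement membrane genes 0 to 2 and type VI chains up to 1. Chains outside the classes went down to 1 higher, and type VI and transmembrane chains to 1 lower. Cross-linking enzymes reached 4 lower, and cartilage and bone markers went down to 4 lower. The causes were not tested. No paired analysis was possible because the table's columns do not carry the replicate numbers of the labels. Low chains have few reads, above all in A2.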

Other observations

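Further lists covered muscle, nerve and fat, tissues that can lie beside a tumour. These lists are short, and of all genes tested 24.3% were lower and 22.1% higher. Of 6 skeletal muscle markers tested 1 fell and 0 rose, with summed levels of 177 to 2105 in ATM-WT and 28.8 to 1249.7 in ATM-KO. Schwann cell markers gave 2 lower and 0 higher of 5 tested, and summed to 1017 to 1345 in ATM-WT and 471 to 545 in ATM-KO. Most of that sum was Mbp (926 ± 153 in ATM-WT and 393 ± 32.4 in ATM-KO). Adipocyte markers gave 1 lower and 0 higher of 3 tested, and summed to 887 to 1457 in ATM-WT and 538 to 690.2 in ATM-KO. Nearly all of that sum was Fabp4, the marker that fell (1038 ± 246 in ATM-WT and 578 ± 70.3 in ATM-KO). The other tested markers, Plin1 and Cidec, did not pass (fold changes 0.96 ± 1.23 and 0.67 ± 1.05). Urothelial markers summed to 1955 to 3662 in ATM-WT and 746 to 1069.8 in ATM-KO.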
